A study of Mus musculus with 7 samples.

Results

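Splenic double-negative T cells of the naive sort, which carry neither CD4 nor CD8, were set against splenic CD4 T cells. Members were the cell barcodes of the 2 naive double-negative (DNT) libraries and of the CD4 library that had at least 200 detected genes and at most 10% mitochondrial UMIs (unique molecular identifiers, each standing for 1 captured RNA molecule). Barcodes with any UMI of the B cell gene Cd79a, or with 2 or more UMIs of the myeloid gene Lyz2, were left out. This gave 3972 cells in naive DNT replicate 1, 6525 in naive DNT replicate 2 and 5008 in CD4, in all 15505 of the 28835 barcodes of the 7 libraries in the series. Spleens of male C57BL/6 mice, 8 weeks old, were the source of all libraries used here, which held CD3+ NK1.1- TCRαβ+ TCRγδ- cells. Naive DNT cells were in addition sorted as CD4- CD8- and as negative for 2 CD1d tetramers (αGal-CD1d and LPC-CD1d) that mark NKT cells, and the CD4 cells as CD4+ CD8-. No culture or treatment is named in the labels of these groups. A CD8 library of the same gate (4644 cells) is quoted only to place a level. How many mice were pooled for a library is not given in the sources used here.

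DNT cells are a small TCRαβ+ population of mouse spleen and lymph node that lies outside the CD4 helper and CD8 killer lineages. Naive CD4 T cells leave the thymus under the control of the transcription factor ThPOK (Zbtb7b), keep a resting programme driven by factors such as LEF1, TCF1 and KLF2, and recirculate through lymph nodes with the help of homing receptors such as CCR7. Unconventional T cells that met strong signals in the thymus instead carry Helios (Ikzf2), T-box factors and receptors for IL-15 and IL-18, and hold transcripts of effector molecules before any stimulation in culture.

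The cells used held 16973908 and 52153580 UMIs in naive DNT replicates 1 and 2 and 21618323 in CD4, with medians of 4118.5, 7571 and 4086.5 UMIs per cell. Replicate 1 and CD4 were made with kit v2 of the 10x Chromium 3′ system and replicate 2 with kit v3, so replicate 1 against CD4 is the comparison within a kit. Naive replicate 1 and CD4 shared 20 barcodes, and replicate 2 shared 1 with each. Cd4, the coreceptor of helper cells, had 1 and 3 UMIs in the naive libraries and 2957 in CD4. Cd8a stood at 1.01, 0.328 and 0.186 CPM (a library's UMIs scaled to a fixed total, over the 27514 gene IDs shared by both references) in the same order, against 491 in CD8. Cd8b1 was at 15.5, 5.34 and 22.5 CPM against 1307 in CD8. Cd3e, a chain of the T cell receptor complex, was at 437, 534 and 395 CPM. Cd4, Cd8a and Cd3e thus matched the labelled sorts. Klrb1c, which encodes the NK1.1 that the sort excluded, had 232 and 673 UMIs in the naive libraries and 6 in CD4. Trdc of γδ T cells was found in 8.06% of the cells of replicate 2. RNA of these markers thus did not match the labelled gate in a part of the cells. The gate was set on surface protein, and the source of this RNA was not tested. Over the B cell list the summed level was 89.8 and 65.0 CPM in the naive libraries and 65.3 in CD4, with Pax5 at or under 0.231 CPM and Cd79b at 20.9, 20.8 and 3.06 CPM. The myeloid list summed to 2108, 1604 and 1613 CPM, most of it the widely expressed Ftl1, with Csf1r at or under 0.415 and Adgre1 at or under 0.237 CPM and Lyz2 at 17, 2.01 and 3.71 CPM. The part of these markers in the results below was not tested. Haemoglobin and other red cell genes summed to 3774 and 842 CPM in the naive libraries and 2840 in CD4.

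With 1 CD4 library no test was possible and no p-value is given. A gene was called higher or lower when its CPM was at least 2-fold apart from CD4 in the same direction for each naive library, and every library on the higher side held 20 CPM or more. Intervals are exact 95% intervals for counting error only. Of 6231 genes tested (mean of the naive mean and CD4 at 10 CPM or more), 220 (3.53%) were called higher and 58 (0.931%) lower in naive DNT cells, together 4.46%. Higher genes made up 79.1% of the calls with plain totals, 63.8% with TMM scaling (169 higher, 96 lower), 59.9% with median-of-ratios scaling (161 and 108) and 67.6% with totals that leave out mitochondrial and ribosomal protein genes (277 and 133). The median gene stood at a log2 ratio of 0.04 to CD4 in replicate 1 and 0.49 in replicate 2, and the values of replicate 2 should be read against that shift. TMM scaling placed these medians at −0.03 and −0.10. Taken alone, replicate 1 gave 254 higher and 89 lower genes, and replicate 2 gave 1901 and 143. The 2 naive libraries themselves lay at least 2-fold apart for 1465 genes that were higher in replicate 2 and 83 that were higher in replicate 1. UMIs were summed over cells. In these sums a gene expressed by fewer cells cannot be told apart from one with less RNA per cell. Shares of cells are therefore given further on. Some genes called higher, listed there, had shares in naive DNT cells no higher than in B cell barcodes of the naive libraries. Their calls hold for the library sums only.

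NK receptor and immediate early genes accounted for 33 of the 220 higher genes (9 of 10 and 24 of 42 tested members of these lists) and for 0 of the 58 lower ones, and are not described further. Another 65 higher and 26 lower genes belonged to the other lists, and 122 and 32 to none. The programmes behind those are described below, beginning with what naive DNT cells lacked. Each list count below should be read against the shares over all genes tested, 3.53% called higher and 0.931% called lower. Each list median should be read against the all-gene medians of 0.04 and 0.49. A gene scarce in CD4 passed the test filter only when it was high in naive DNT cells. Counts and medians of lists with many such genes, as the NK receptor list, therefore lean to the higher side by this filter.

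**Figure D1:**
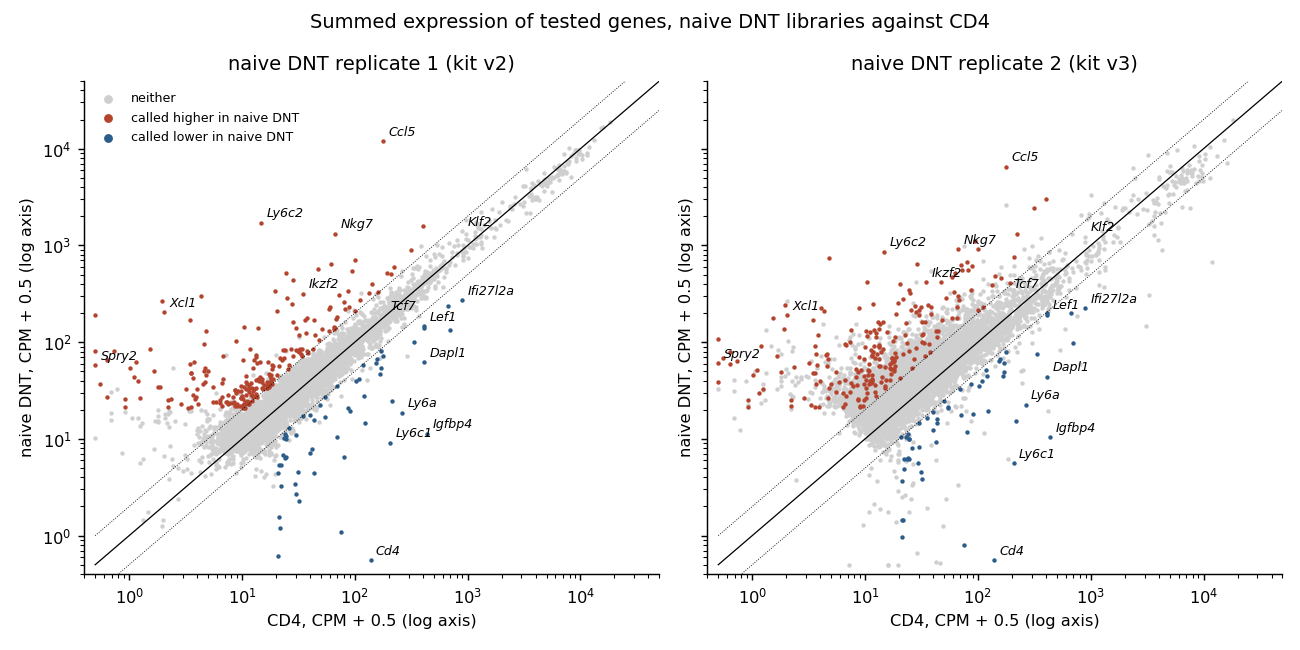
Each point is 1 of the 6231 tested genes, with its CPM + 0.5 in CD4 on the horizontal log axis and in naive DNT replicate 1 (left) or replicate 2 (right) on the vertical log axis. The solid line marks equal levels and the dotted lines 2-fold differences. Ccl5 and Ly6c2 lie far above the line and Cd4, Igfbp4 and Ly6c1 far below it in both panels, while the cloud of replicate 2 sits above the line at low levels.

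In naive DNT cells some factors and the IL-7 receptor gene of the resting state stood near or above the CD4 level, while other genes of the naive state were several-fold lower. Of 34 tested members of the resting and lymphoid homing list, 1 was called higher (Sidt1) and 5 lower (Igfbp4, Il6ra, Dapl1, Npc2 and Lef1). The list's median log2 ratio was −0.33 in replicate 1 and 0.29 in replicate 2, below the all-gene medians of 0.04 and 0.49. Klf2, the transcription factor that keeps S1pr1 expressed, was at 1398 and 1228 CPM in the naive libraries and 892 in CD4. Tcf7, which encodes TCF1, was at 190 and 315 CPM against 183, and the IL-7 receptor gene Il7r at 134 and 400 against 122. None of these 3 genes was lower than CD4 in either naive library with plain totals. With each other scaling Tcf7 in replicate 1 lay below CD4, and so did Klf2 in replicate 2 with TMM and median-of-ratios scaling.

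Igfbp4 (an IGF-binding protein, ENSMUSG00000017493, chromosome 11, 99041244 to 99054392 in GRCm38) was the resting-list gene furthest below CD4. It was at 10.8 and 9.87 CPM in the naive libraries, 434 in CD4 and 146 in CD8. CD4 was thus 40.0-fold (34.6 to 46.6) above replicate 1 and 44.0-fold (40.2 to 48.1) above replicate 2. Dapl1 (chromosome 2, 59484653 to 59505020), a gene of resting T cells, was at 61.9 and 43.3 CPM in the naive libraries against 412 in CD4 and 674 in CD8. Lef1, the partner of TCF1 in the naive programme (chromosome 3, 131110471 to 131224356), was at 146 and 191 CPM against 408 in CD4 and 308 in CD8. The CD4 level of Lef1 was 2.79-fold above replicate 1 and 2.14-fold above replicate 2, and its call was lost when cells had to have 500 genes and at most 5% mitochondrial UMIs. Both sorts of conventional T cells, CD4 and CD8, lay above both naive DNT libraries for Igfbp4, Dapl1 and Lef1.

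Il6ra, the ligand-binding chain of the IL-6 receptor, was at 5.93 and 11.2 CPM in naive DNT cells and 80.2 in CD4. Npc2, which binds cholesterol in lysosomes, was at 236 and 201 CPM against 668. Ccr7, the receptor that guides T cells into lymph nodes, was at 71.6 and 145 CPM against 288 in CD4 and 198 in CD8, and missed the call by a small margin in replicate 2. S1pr1, the receptor for exit from lymphoid organs, went in opposite directions in the 2 naive libraries, at 69.3 and 176 CPM against 108. Cd27 and Bcl2, a costimulatory receptor and a survival factor of resting cells, stayed within 2-fold of CD4 in both libraries with plain totals, Cd27 at 314 and 253 CPM against 366 and Bcl2 at 302 and 266 against 203.

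Several genes of the helper lineage were lower in naive DNT cells, with Cd4 itself set by the sort. Of 19 tested genes of CD4 and CD8 lineage choice, 4 were called lower (Cd4, Tesc, Cd40lg and Zbtb7b) and 2 higher (Ctsw and Runx3). Cd4 (chromosome 6, 124864692 to 124888221) was 2320-fold higher in CD4 than in replicate 1, with a counting interval of 416 to 91600 that reflects the single UMI there. It was 2370-fold higher than in replicate 2 (812 to 11500). Zbtb7b, which encodes the helper lineage factor ThPOK, was at 6.58 and 12 CPM in naive DNT cells, 39.8 in CD4 and 0.459 in CD8. Cd40lg, through which helper cells license B cells, was at 9.84 and 17.3 CPM against 69.7 in CD4 and 0.543 in CD8. For both genes naive DNT cells lay between the CD8 and CD4 levels. Tesc, a calcium-binding protein, was at 14.2 and 18.7 CPM against 122 in CD4, close to the 20.1 of CD8. Runx3, the factor of the CD8 lineage, was at 83.4 and 190 CPM in naive DNT cells, 29.8 in CD4 and 79.5 in CD8. Gata3 was at 41.2 and 74.9 CPM against 46.7 and was not called.

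A few genes of the regulatory T cell list were lower as well, and most of the list was too scarce to be tested. In the regulatory T cell list 10 of 22 matched genes were tested, with 2 called lower and 0 higher. Ikzf2, also a marker of regulatory T cells but counted in another list, went the other way. It was at 317 and 416 CPM in naive DNT cells against 34.3 in CD4. Izumo1r (folate receptor 4, carried by regulatory and anergic helper cells) was at 23.9 and 14.9 CPM in naive DNT cells against 215 in CD4 and 34.1 in CD8. Tnfrsf4, the costimulatory receptor OX40, was at 1.78 and 3.34 CPM against 31.3. Foxp3, the regulatory lineage factor, fell under the test filter, with 4 and 47 UMIs in the naive libraries and 213 in CD4 (0.237, 0.906 and 9.89 CPM). In CD4 the 67 cells with a Foxp3 UMI held Izumo1r in 53.7% of cases, and the other cells in 19.4%. Of the 988 CD4 cells with an Izumo1r UMI, 36 also held a Foxp3 UMI. Ctla4, an inhibitory receptor of regulatory and activated cells, was at 11 and 23.1 CPM in naive DNT cells against 12 in CD4, so it was not called.

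The Ly6 antigens, small GPI-anchored surface proteins encoded side by side on chromosome 15, included a pair of close copies on opposite sides of the comparison. Of 13 matched Ly6 genes 5 were tested, with 1 called higher and 2 lower. Ly6c2 (ENSMUSG00000022584, 75108158 to 75111970, minus strand) was at 1708 and 862 CPM in the naive libraries, 14.3 in CD4 and 665 in CD8. That was 119-fold (106 to 134) and 60.1-fold (53.7 to 67.4) above CD4. Ly6c1 (ENSMUSG00000079018, 75044018 to 75048830, minus strand) had the opposite order, with 8.59 and 5.11 CPM in naive DNT cells, 206 in CD4 and 0.793 in CD8. CD4 was 24-fold (20.3 to 28.5) above replicate 1 and 40.4-fold (35.6 to 45.9) above replicate 2. Ly6a, which encodes Sca-1, was at 18.1 and 22 CPM in naive DNT cells against 264 in CD4 and 35.8 in CD8. Ly6e, a broadly expressed member, was at 864 and 772 CPM against 972 and was not called. The 500-base ends of the first listed transcripts of Ly6c1 and Ly6c2 were 98.2% identical over 493 aligned columns, with an identical run of 124 bases. Reads from these ends can be shared between the copies, so the count of each gene is uncertain to the extent that the counting split or dropped them.

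Since the copies lay on opposite sides of the comparison, the 250 bases before a RefSeq start of each (GRCm38.p6, minus strand, printed 5′ to 3′) are shown, with capitals for bases that differ or have no partner within the aligned stretch. The pair of starts that aligned best was taken, out of 2 listed for each gene. The Ly6c1 stretch is chr15:75048838-75049087 and the Ly6c2 stretch chr15:75111972-75112221.
Ly6c1: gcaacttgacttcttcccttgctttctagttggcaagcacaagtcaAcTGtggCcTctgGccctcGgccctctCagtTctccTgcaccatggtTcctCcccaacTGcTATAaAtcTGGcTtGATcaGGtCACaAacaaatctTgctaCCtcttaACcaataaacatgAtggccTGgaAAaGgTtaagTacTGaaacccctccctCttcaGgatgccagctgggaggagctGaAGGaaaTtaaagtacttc
Ly6c2: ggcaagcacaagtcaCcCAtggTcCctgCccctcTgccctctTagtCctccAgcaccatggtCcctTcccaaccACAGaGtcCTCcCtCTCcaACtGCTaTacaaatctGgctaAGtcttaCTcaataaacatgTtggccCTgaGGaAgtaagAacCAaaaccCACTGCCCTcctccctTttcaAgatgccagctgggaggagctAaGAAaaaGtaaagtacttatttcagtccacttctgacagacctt
The aligned stretch had 227 columns, of which 164 (72.2%) were identical. The letters TGTGGT, a core that RUNX factors bind, were searched on both strands and occurred 1 time in the Ly6c2 stretch and 0 times in that of Ly6c1. They occur in 14.0% of the 32851 RefSeq promoter stretches of this length. The T-box core TCACACC (in 3.33% of stretches) and the GAS element TTCNNNGAA (7.02%) occurred in neither.

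**Figure D2:**
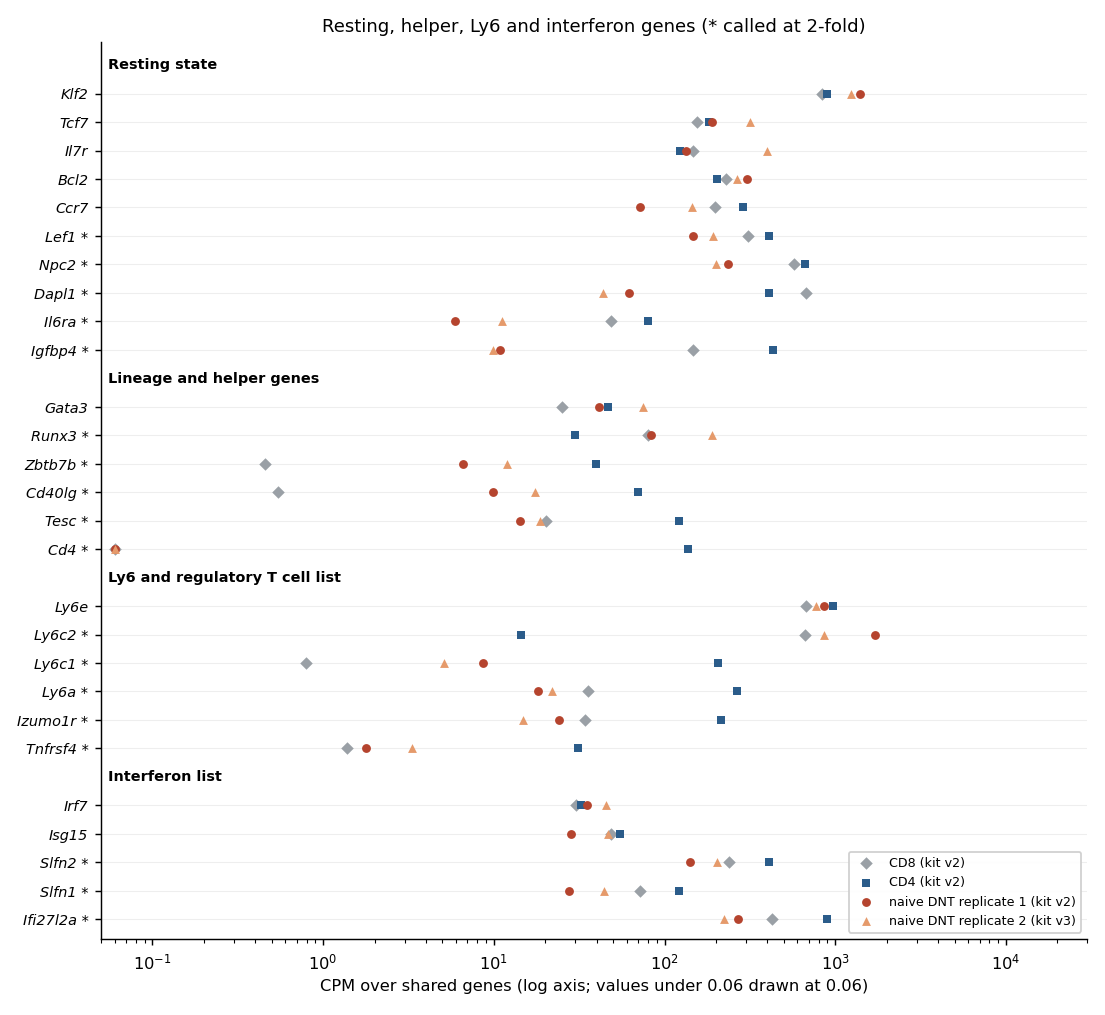
CPM on a log axis of resting, lineage, Ly6, regulatory and interferon genes in naive DNT replicate 1 (circles), naive DNT replicate 2 (triangles), CD4 (squares) and CD8 (diamonds), with an asterisk for genes called at 2-fold. Klf2, Tcf7 and Bcl2 lie within 2-fold of CD4 in both naive libraries, while Il7r lies further to the right in replicate 2. Igfbp4, Il6ra, Cd40lg, Ly6c1 and Ly6a lie far to the left of CD4 in both naive libraries, and Ly6c2 to its right.

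A few interferon-response transcripts were lower in naive DNT cells. Of 36 tested members 0 were called higher and 3 lower, where 3.53% and 0.931% of all genes tested were. The list's median log2 ratio was −0.41 in replicate 1 and −0.01 in replicate 2, against all-gene medians of 0.04 and 0.49. Against the mean of the naive libraries the list's median was below 0 with plain totals and with each of the 3 other scalings. Ifi27l2a, an interferon-induced mitochondrial protein (chromosome 12, 103442167 to 103443680), had 270 and 224 CPM in the naive libraries, 890 in CD4 and 426 in CD8. Slfn1, a Schlafen family gene, was at 27.4 and 43.9 CPM against 121, and its relative Slfn2, required for T cell quiescence, at 140 and 202 against 410. The Slfn2 call was lost with the filter of 500 genes and 5% mitochondrial UMIs. Irf7 and Isg15, which rise in cells that sense type I interferon, were not called: Irf7 was at 35.3 and 45.4 CPM against 32.4, and Isg15 at 28.3 and 46.8 against 54.9. The 2 chains of the receptor for interferon gamma lay on opposite sides. Ifngr2, the signalling chain, was at 2.19 and 7.67 CPM in naive DNT cells against 29.4 in CD4, and Ifngr1, the ligand-binding chain, which is named here after its values were seen, at 220 and 472 against 58.5.

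Type 1 effector genes were higher in naive DNT cells, 12 of the 18 tested by 2-fold or more in both libraries. The type 1 and T-box list had 25 matched members, and of the 18 tested 1 was called lower (Ifngr2). The median log2 ratio was 2.89 in replicate 1 and 3.56 in replicate 2. Ccl5, the chemokine RANTES (ENSMUSG00000035042, chromosome 11, 83525778 to 83530518), reached 11940 and 6495 CPM in the naive libraries, against 177 in CD4 and 1558 in CD8. It was 67.5-fold (65.4 to 69.8) and 36.7-fold (35.6 to 37.9) above CD4. Xcl1, which attracts cross-presenting dendritic cells (chromosome 1, 164931644 to 164935527), was at 202 and 188 CPM against 1.53 in CD4 and 18.4 in CD8, or 132-fold (93.7 to 192) and 123-fold (87.5 to 179). Both chemokine genes were highest in naive DNT cells, next in CD8 and lowest in CD4.

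Eomes, the T-box factor of memory and innate-like cells, was at 61.7 and 57.0 CPM in naive DNT cells, 3.25 in CD4 and 23.3 in CD8. Tbx21, which encodes T-bet, was at 19.1 and 29.0 CPM against 2.88, and was not called because replicate 1 lay under 20 CPM. Ifng, the type 1 cytokine, was at 48.0 and 89.8 CPM against 3.06 in CD4 and 0.835 in CD8. Receptor genes of the programme were called as well. Il2rb, the shared chain of the IL-2 and IL-15 receptors (chromosome 15, 78479256 to 78495271), was at 208 and 395 CPM against 20.0 in CD4, which is 10.4-fold and 19.8-fold. Il18r1, a chain of the IL-18 receptor, was at 59.7 and 154 CPM against 13.1, and Cxcr3, a chemokine receptor for inflamed tissue, at 78.3 and 98.7 against 31.4. The call of Cxcr3 was lost with median-of-ratios scaling.

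Among 14 tested chemokine and cytokine genes 4 were called higher (Ccl4, Ccl5, Xcl1 and Ifng) and 0 lower. Ccl4 was at 45.5 and 33.4 CPM against 4.32 in CD4. Ltb, which encodes lymphotoxin beta, was high in all libraries, at 941 and 810 CPM in naive DNT cells against 1113 in CD4. Chemokine receptors were called higher for 5 of 12 tested genes and lower for 1. Cxcr6, a receptor of liver-homing T cells, was at 65.4 and 128 CPM against 9.75 in CD4 and 61.3 in CD8, and Ccr2, a receptor for inflammatory chemokines, at 23.5 and 49.2 against 5.06. Cxcr4 was at 21.3 and 94.6 CPM against 6.13, and the lipid receptor gene Gpr18 at 16.4 and 20.2 against 53.5. Ccr9, the gut-homing receptor, was at 6.52 and 20.6 CPM against 3.81 in CD4 and 62.2 in CD8.

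Some granule genes were higher, while those of granzyme B and perforin did not meet the calling rule. Of 18 tested members of that list 5 were called higher and 0 lower, with a median log2 ratio of 0.53 and 1.07. Nkg7, a granule membrane protein (chromosome 7, 43437073 to 43438249), had 1324 and 911 CPM in the naive libraries against 66.2 in CD4 and 937 in CD8, or 20.0-fold and 13.8-fold above CD4. Ctsw and Cst7, a cathepsin of killer cells and an inhibitor of cathepsins, were at 284 and 319 CPM against 24.3, and at 140 and 78.3 against 13.3. Among the effector proteases, Gzma was at 61.5 and 29.5 CPM against 0.650 in CD4 and 60.9 in CD8, but in few cells, since 1.3% and 0.884% of naive DNT cells held it at equal depth. In replicate 2 the 526 cells with a UMI of the TCR delta gene Trdc, which among the libraries used here only the reference of that library counted, held Gzma at 128 CPM and the other 5999 cells at 21.4 CPM. Gzmb was at 10.8 and 21.6 CPM against 4.13. It was more than 2-fold above CD4 in both libraries, but was not called because replicate 1 lay under 20 CPM. The pore-forming Prf1 was at 2.07 and 33.1 CPM against 1.35. For Prf1 the 2 naive libraries differed more from each other than replicate 1 did from CD4.

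Among genes of agonist-selected and innate-like T cells, Helios was higher in naive DNT cells by about an order of magnitude. Of 17 tested members of that list (29 matched) 4 were called higher (Ikzf2, Ikzf3, Cd160 and Nr4a1) and 0 lower, with median log2 ratios of 0.56 and 1.61. Nr4a1 is also counted among the immediate early genes, and its call was lost when cells were thinned. Ikzf3 is among the genes whose shares in both naive libraries were no higher than in B cell barcodes, so its call holds for the library sums only. Ikzf2, which encodes Helios (ENSMUSG00000025997, chromosome 1, 69531214 to 69687245), had 317 and 416 CPM in the naive libraries, 34.3 in CD4 and 17.2 in CD8. This was 9.25-fold (8.56 to 10.0) and 12.1-fold (11.3 to 13.1) above CD4. Its relative Ikzf3, Aiolos, was at 23.9 and 81.9 CPM against 10.7. Zbtb16, which encodes PLZF of NKT and other innate-like cells, was at 3.85 and 24.4 CPM against 0.232 and fell short of the rule in replicate 1. Cd160, a receptor for HVEM that the NK receptor list also holds, was at 168 and 168 CPM in the 2 naive libraries against 2.97 in CD4 and 25.9 in CD8. Id2 and Id3, inhibitors of E proteins, were not called, Id2 at 190 and 248 CPM against 102 and Id3 at 156 and 91.0 against 116.

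Signalling adaptors that are typical of NK cells were higher in naive DNT cells. Fcer1g, the FcR gamma chain (chromosome 1, 171229572 to 171234365), had 301 and 208 CPM in the naive libraries against 3.81 in CD4 and 5.43 in CD8, 79.0-fold (63.5 to 99.5) and 54.5-fold (43.9 to 68.6). Cd7, a surface receptor of immature T cells and NK cells (chromosome 11, 121036747 to 121039418), was at 564 and 420 CPM against 47.0 in CD4 and 129 in CD8. Tyrobp, which encodes DAP12, was at 41.1 and 27.2 CPM against 6.22, and its call was lost with median-of-ratios scaling. Syk, the kinase that FcR gamma and DAP12 recruit, had 5 and 34 UMIs in the naive libraries and 1 in CD4, at or under 0.656 CPM. Tyrobp and Fcer1g are also expressed by myeloid cells. Of 23 myeloid list genes 7 were tested, 1 was called higher (Lgals3) and 1 lower (Ctss), and the median log2 ratio was 1.72 in replicate 1 and −0.11 in replicate 2. The part of myeloid RNA in the levels of Tyrobp and Fcer1g was not tested. Ncr1, a marker of NK cells, had 1 and 61 UMIs in the naive libraries and 1 in CD4. Other NK cell markers were higher in naive DNT cells. Klrb1c had 232 and 673 UMIs against 6, and Eomes and Gzma were called higher. Of 29 matched NK receptor genes 10 were tested and 9 called higher. Of the 29, 11 had no UMI in CD4, and such genes could be tested only through their naive DNT level.

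Within the T cell receptor complex and its proximal signalling, 48 of 48 matched genes were tested, 3 were called higher and 0 lower, and the median log2 ratio was −0.03 and 0.59. Txk, a Tec family kinase, was at 319 and 386 CPM against 132, a call that TMM and median-of-ratios scaling lost, and the phosphatase genes Ptpn22 and Ubash3b were at 104 and 167 CPM against 47.6 and at 35.2 and 58.7 against 16.2. Lck and Zap70, the first kinases of the cascade, stayed within 2-fold of CD4 in both libraries with plain totals, Lck at 584 and 465 CPM against 647 and Zap70 at 115 and 137 against 91.0. Some members lay below CD4 without reaching the rule. Cd5, a receptor that scales with the strength of self-recognition, was at 40.1 and 64.8 CPM against 127 in CD4 and 53.5 in CD8. The zeta chain gene Cd247 was at 145 and 142 CPM against 272, and Lat, the scaffold of the receptor signal, at 368 and 292 against 606. Of these, Cd247 overlaps other annotated genes, but those counted here lie on the opposite strand. How far the overlap touches its count was not tested.

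Type 17 transcripts were present at low levels, mainly in replicate 2. Of 25 matched members 12 were tested, 4 were called higher (Tmem176a, Tmem176b, Ahr and Il18r1) and 0 lower. Il18r1 is counted in the type 1 list as well. The median log2 ratios were 1.62 and 3.27. Of the matched members 8 had no UMI in CD4. Members scarce in CD4 could be tested only through their naive DNT level, so the count and medians lean upwards by the filter. Tmem176a and Tmem176b, neighbouring and overlapping ion channel genes of type 17 cells, were at 32.4 and 60.4 CPM against 2.69, and at 38.1 and 65.7 against 4.23. Ahr, the aryl hydrocarbon receptor, was at 22.7 and 25.8 CPM against 2.37, a call lost with TMM and median-of-ratios scaling. Il17a had 10 and 742 UMIs in the naive libraries and 0 in CD4, and Il23r had 14 and 389 against 0. Rora was at 18.6 and 110 CPM against 10.4. For Il17a, Il23r and Rora the 2 naive libraries were several-fold apart, and the kit and the library cannot be told apart there.

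Several genes that mark antigen-experienced T cells were higher in naive DNT cells. Of 28 tested members of the S100, annexin, galectin and effector-memory list 8 were called higher and 1 lower, with median log2 ratios of 0.47 and 0.81. Anxa2, a membrane-binding annexin (chromosome 9, 69453620 to 69491795), was at 250 and 233 CPM against 27.2 in CD4 and 25.8 in CD8, or 9.21-fold and 8.58-fold above CD4. S100a6, a calcium-binding protein, was at 402 and 485 CPM against 142, and Cd44, the hyaluronan receptor that rises on memory cells, at 57.9 and 114 against 17.8. Ahnak, a scaffold protein, was at 84.0 and 249 CPM against 11.3, and Lgals3 (galectin 3) at 62.5 and 84.9 against 14.0. S100a4 (169 and 302 CPM against 132), Lgals1 (592 and 457 against 370) and Vim (266 and 415 against 238) were not called, and a readthrough gene overlaps S100a4 on its strand. Gsn, gelsolin, was the 1 gene lower, at 10.8 and 10.6 CPM against 23.6, a call that several cell filters lost.

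Most integrin genes were not called. Of 23 tested integrin and adhesion genes 3 were called higher (Cd44, Icam1 and Crtam) and 1 lower (Cd81). Itgb7 and Itgb1 stayed uncalled at 206 and 290 CPM against 254 and at 29.4 and 70.7 against 31.0. Cd81, a tetraspanin, was at 4.03 and 4.07 CPM against 30.6 in CD4 and 1.96 in CD8. Crtam, an adhesion receptor of cytotoxic cells, was at 32.5 and 38.8 CPM against 3.48. Among 25 tested costimulatory genes 2 were higher (Cd7 and Slamf7) and 2 lower (Cd40lg and Tnfrsf4), and Cd28 was at 305 and 494 CPM against 207. Slamf7 was at 59.5 and 47.8 CPM against 2.97. Of 9 tested coinhibitory genes 2 were higher (Cd160 and Cd72) and 1 lower (Btla, at 3.91 and 9.99 CPM against 20.3, a call lost with most other cell filters).

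Gamma-chain cytokine receptors and their signalling genes gave 3 higher and 1 lower call among 24 tested. Beside Il2rb these were Pim1, a kinase gene that STAT5 induces, at 258 and 672 CPM against 79.5, and Il10rb, at 71.9 and 71.5 against 33.2. The call of Il10rb, which overlaps a readthrough gene, was lost with each of the 3 other scalings. Il4ra (36.1 and 106 CPM against 30.2) and Socs3 (36.6 and 80.1 against 33.9) were near CD4 in replicate 1 and above it in replicate 2. Rgs1 and Rgs2, which limit chemokine receptor signals, were at 101 and 225 CPM against 8.36 and at 163 and 206 against 27.8. The G protein signalling list as a whole had 5 of 25 tested members called higher and 0 lower.

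Several of the genes furthest from CD4 belonged to no programme. Spry2, an inhibitor of MAPK signalling (chromosome 14, 105891947 to 105896819), was at 57.5 and 59.6 CPM in the naive libraries and had 0 UMIs in CD4, so it was at least 413-fold and 428-fold higher with 3 UMIs in CD4 as the floor. Gem, a small GTPase, was at 38.9 and 90.6 CPM against 0.697, the chondroitin synthase gene Chsy1 at 33.8 and 49.2 against 1.3, and Samd3 at 42.6 and 50.8 against 0.604. Kcnc1, a potassium channel of neurons, was at 21 and 24.6 CPM against 0.418 and Lrrk1, a kinase, at 25.3 and 20.7 against 0.418, and both calls were lost with TMM and median-of-ratios scaling. Gm26532, a noncoding gene, and Pxdc1 were called too. On the CD4 side, Pdlim4, a PDZ and LIM domain protein (chromosome 11, 54054928 to 54069014), had 0.593 and 0.308 CPM in the naive libraries against 74.8 in CD4 and 1.13 in CD8. CD4 was 126-fold (68.5 to 264) and 242-fold (149 to 425) above the naive libraries. Nacc2, a transcriptional repressor, had 2 and 24 UMIs against 442, and Igsf23 had 12 and 49 against 455.

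**Figure D3:**
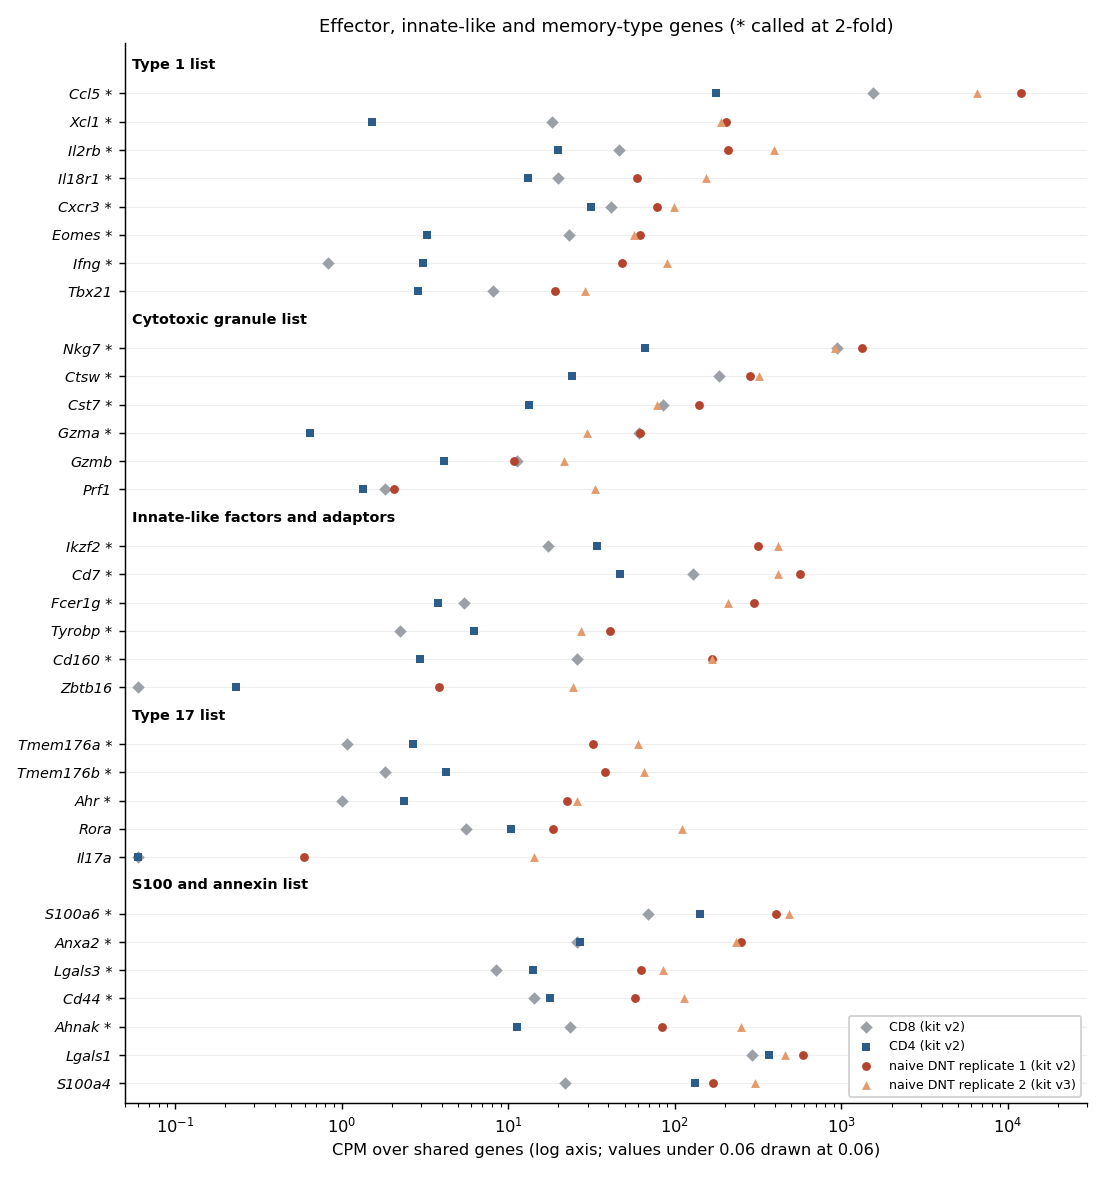
CPM on a log axis of effector, innate-like, type 17 and memory-type genes in naive DNT replicate 1 (circles), naive DNT replicate 2 (triangles), CD4 (squares) and CD8 (diamonds), with an asterisk for genes called at 2-fold. Ccl5, Xcl1, Ikzf2, Fcer1g and Anxa2 lie to the right of CD4 and CD8 in both naive libraries, while for Nkg7, Cst7 and Gzma the CD8 library lies among the naive ones and Il17a and Prf1 differ between the naive libraries.

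Housekeeping programmes gave few calls. Cytosolic ribosomal protein genes had 0 of 84 tested members called in either direction, with median log2 ratios of −0.15 and −0.43, and their summed CPM was 464700 and 359000 in the naive libraries against 511600 in CD4. Oxidative phosphorylation genes had 0 of 50 called, with medians of 0.02 and −0.28. Actin cytoskeleton genes had 2 of 46 called higher, genes of the nucleolus and MYC programme 1 of 28, chaperones 2 of 33 and MHC class I presentation genes 1 of 21 (H2-Q6, at 228 and 330 CPM against 60.3). Over all genes tested the rule called 3.53% higher. H2-Q6 belongs to a family of near-identical class Ib genes, and its count is uncertain for that reason.

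Most metabolic genes were not called. Of 21 tested glycolysis and nutrient transport genes 1 was called higher and 2 lower. Of 18 tested cholesterol and lipid genes 0 were called higher and 2 lower (Npc2 and Fdps), with median log2 ratios of −0.11 and 0.61. Both shares called lower were above that of all genes tested, on 2 genes each. The cholesterol and lipid list summed to 543 and 726 CPM in the naive libraries against 1018 in CD4. Npc2 made 236, 201 and 668 of these. Thinning the cells lost the Fdps call. Pdk1, which diverts pyruvate from mitochondria, was at 38.8 and 34.8 CPM in naive DNT cells against 102 in CD4, and Ldhb, a lactate dehydrogenase subunit, at 16.7 and 16.0 against 34.5, although thinning the cells lost the Ldhb call. Slc3a2, the heavy chain of amino acid transporters, was higher at 172 and 273 CPM against 68.1. Gapdh was at 559 and 719 CPM against 566. In the proliferation list 0 of 17 tested genes were called higher and 1 lower (Stmn1, a microtubule regulator, at 41.4 and 38.8 CPM against 108). In the BCL2 family Bid and Bbc3, both death-promoting, were 2 of 15 called higher, Bid at 21.6 and 21.3 CPM against 8.54 and Bbc3 at 38.4 and 61.8 against 17.3, and the Bid call was lost with each other scaling. Of the NF-kB list 5 of 25 tested members were called higher, of which Tnfaip3, Nfkbiz and Nfkbia are also immediate early genes. Gimap5, a GTPase of T cell survival, was at 275 and 231 CPM against 110 and was the 1 gene called among 8 tested GIMAP genes, a call lost with each other scaling. A readthrough gene overlaps Gimap5 on the same strand.

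**Figure D4:**
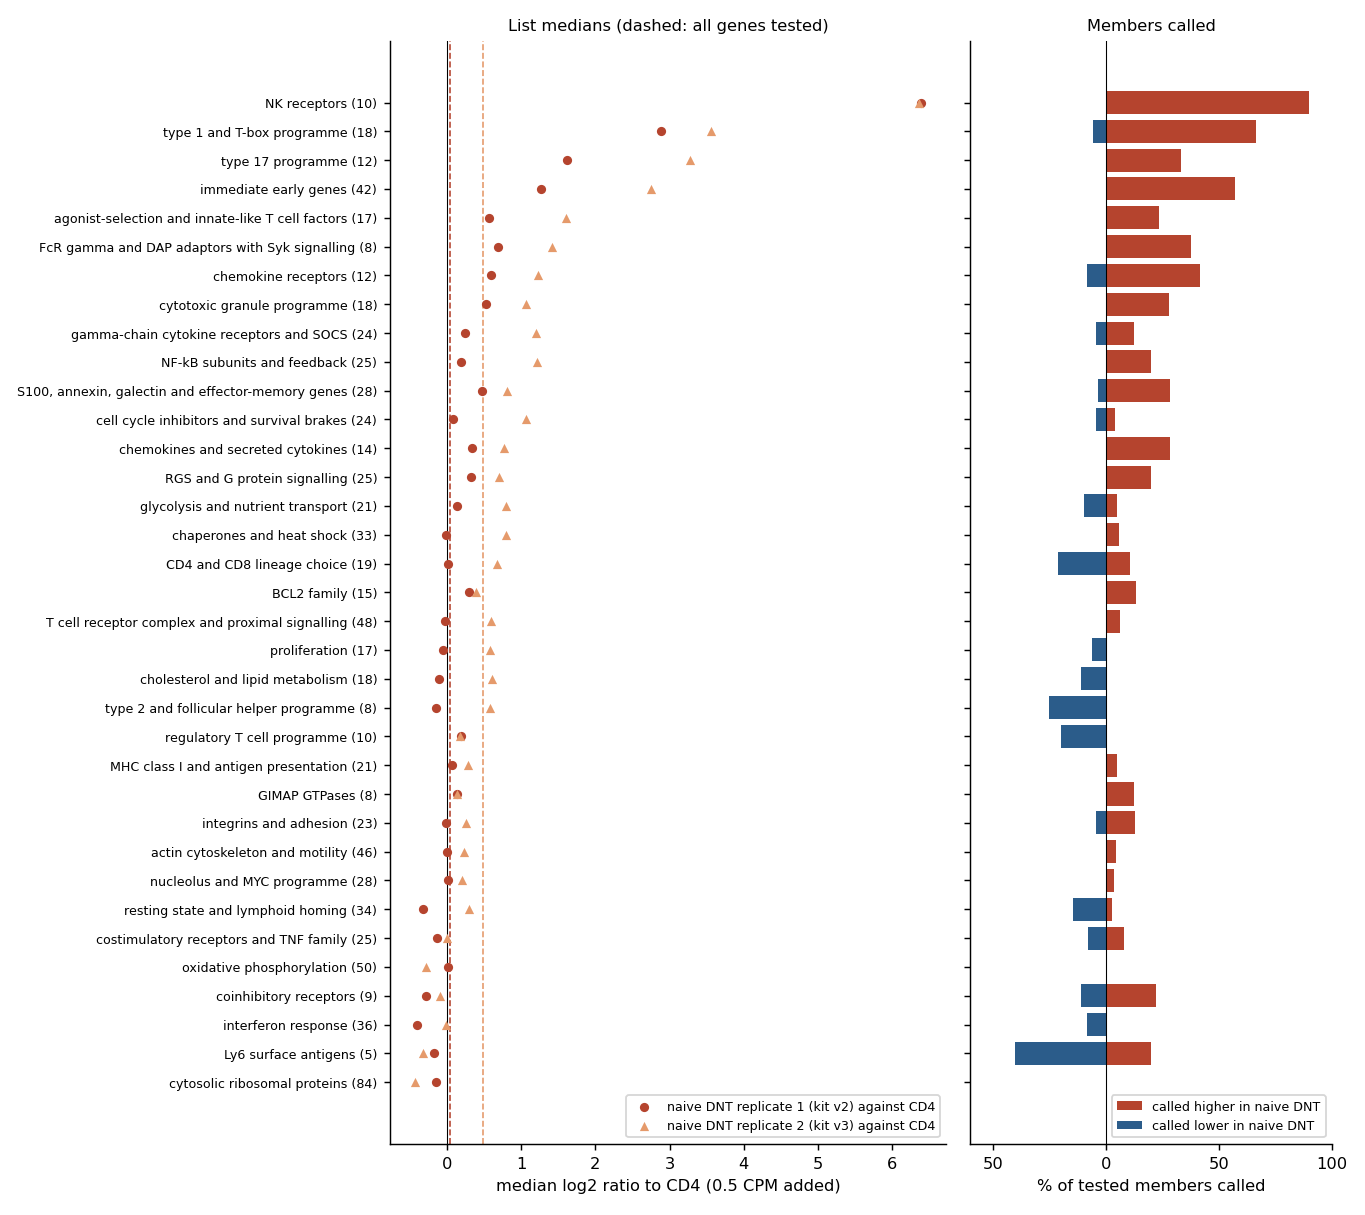
Left: median log2 ratio to CD4 over the tested members of each list (number tested in parentheses), for naive DNT replicate 1 (circles) and replicate 2 (triangles), with dashed lines at the medians of all 6231 genes (0.04 and 0.49). Right: percent of tested members called higher (right of 0) or lower (left of 0), where NK receptors and the type 1 list reach furthest to the right and ribosomal and oxidative phosphorylation genes have none.

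Shares of cells with a UMI were compared after each cell was thinned to 1500 UMIs, which kept 3931 and 6448 naive DNT cells and 4974 CD4 cells and left out 41, 77 and 34. The background of free RNA was read from 110 B cell barcodes of the naive libraries (2 in replicate 1, 108 in replicate 2, median depths 7307.5 and 5300 UMIs before thinning, against 4089.5, 7535 and 4071.5 in naive DNT replicates 1 and 2 and CD4). B cells can also express some of these genes themselves. Ccl5 was detected in 94.3% and 79.3% of naive DNT cells and 3.88% of CD4 cells, against 28.2% of B cell barcodes. Ly6c2 was detected in 77.0% and 55.1% against 1.25%, with 11.8% of B cell barcodes, and Nkg7 in 80.5% and 66.1% against 4%, also with 11.8%. Of the 66 named genes called higher outside the NK receptor and immediate early lists, 37 had shares above those of B cell barcodes in both naive libraries. In both libraries 16 had shares at or below them: Ahr, Atf4, Bid, Ccl4, Cd72, Cd79b, Cxcr4, Cxxc5, Dnajb9, Dstn, Gem, Gm26532, Ikzf3, Lrrk1, Pxdc1 and Rgs2. For instance Gem was detected in 5.11% and 11.3% of naive DNT cells against 19.1% of B cell barcodes, and Pxdc1 in 2.52% and 6.68% against 18.2%. The shares of these 16 genes are not read as expression by naive DNT cells, and their calls above hold for the library sums only. Whether free RNA or the B cells' own RNA gave the B cell shares was not tested. A further 10 genes lay at or below the B cell share in replicate 1 only (Ahnak, Cd44, Chsy1, H2-Q6, Icam1, Lgals3, Odc1, Pde7a, Pim1 and Rgs1) and 3 in replicate 2 only (Il10rb, Slamf7 and Tyrobp). Since 108 of the 110 B cell barcodes came from replicate 2, replicate 1 is set here against another library and kit. Its own background is not known from them, and the split of these genes by library is not read further. Ccl5, Ly6c2 and Nkg7 were detected in most naive DNT cells and in few CD4 cells.

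Other higher genes were held by a part of the cells. Cd7 was detected in 45.2% and 37.7% of naive DNT cells against 6.47% of CD4 cells, Ikzf2 in 35.1% and 42.4% against 3.46%, and Anxa2 in 30.1% and 25.8% against 1.99%. Fcer1g was detected in 28.9% and 20.6% against 0.342%, Xcl1 in 18.3% and 17% against 0.181%, and Eomes in 8.32% and 6.03% against 0.362%. B cell barcodes held Ikzf2 in 9.09% and Fcer1g in 3.64%, below the naive DNT shares. Among the genes called lower, Igfbp4 was detected in 1.35% and 1.16% of naive DNT cells against 36.3% of CD4 cells, Dapl1 in 6.49% and 4.42% against 33.2%, and Ly6c1 in 1.09% and 0.791% against 22.2%. Others were still held by a larger part of naive DNT cells: Lef1 was detected in 19.8% and 25.4% against 44.4%, while Klf2 was found in 78.2%, 70.2% and 67.2% (and in 92.7% of B cell barcodes) and Tcf7 in 26.2%, 37.6% and 22.6%. Ifi27l2a was detected in 25.9% and 22% of naive DNT cells against 59.8% of CD4 cells, and a Cd4 UMI in 0 of 3931 cells (which allows up to 0.0763% of cells with a UMI at this depth and sets no limit on expression) and 0.0155% against 19.0%. Although every CD4 cell was sorted for the protein, most thus showed no Cd4 UMI at this depth. Before thinning Cd4 was found in 42.6% of CD4 cells, and Ccl5 in 99% and 90.5% of naive DNT cells and 7.61% of CD4 cells. In naive replicate 1, naive replicate 2 and CD4, Ly6c2 was found in 88%, 73.4% and 2.46% of cells before thinning, Ikzf2 in 60.9%, 79.3% and 5.73%, and Igfbp4 in 2.67%, 3.59% and 58.8%. For these 3 genes both naive libraries lay on the same side of CD4 before and after thinning.

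**Figure D5:**
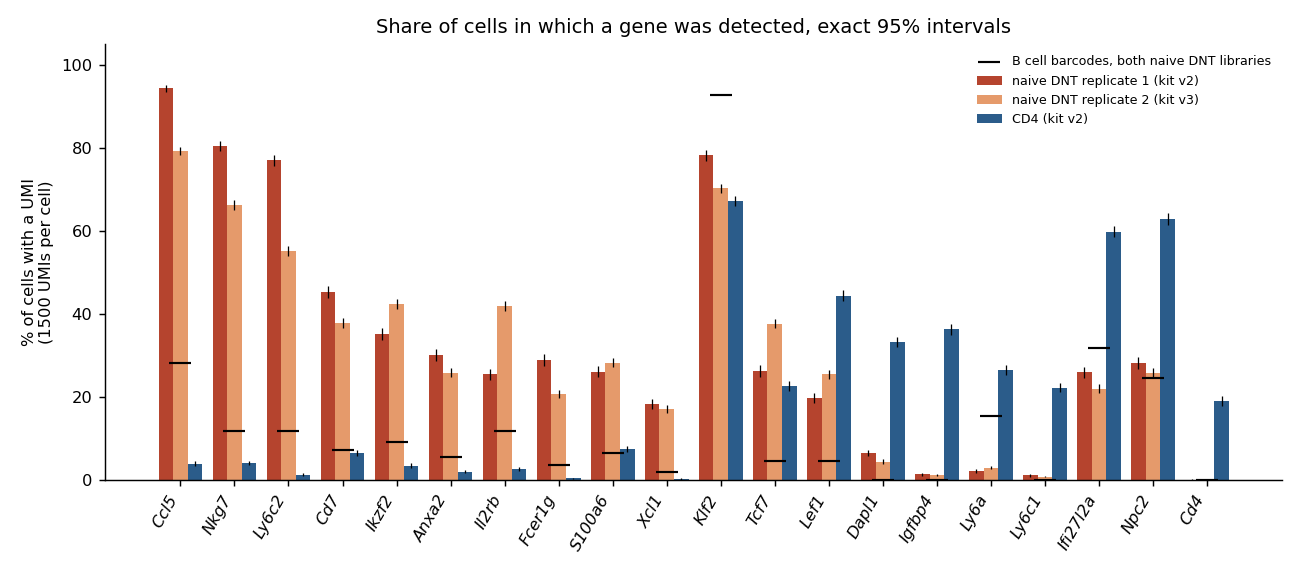
Percent of cells with at least 1 UMI after thinning to 1500 UMIs per cell, for naive DNT replicate 1, naive DNT replicate 2 and CD4 (bars from 0, with exact 95% binomial intervals for counting error), with black dashes for the 110 B cell barcodes of the naive libraries. The 10 genes on the left reach higher bars in both naive libraries, Klf2 is high in all, and the genes from Lef1 rightwards reach higher bars in CD4.

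Within the naive DNT libraries the programmes did not sit evenly over cells. Cells of replicate 2 with a Ccl5 UMI held Ly6c2 in 65.5% and those without in 15.5%, and in replicate 1 the values were 78.4% and 53.8%. Cells with a UMI of Maf, a factor of type 17 and follicular cells, held S100a6 in 68.6% and 62.9%, against 25.1% and 25.6% of cells without. For Ikzf2 the shares lay closer together: Ly6c2 was found in 76.1% of Ikzf2-positive and 77.6% of other cells in replicate 1, and in 57.9% and 53.1% in replicate 2. In CD4 the few cells with Ccl5 (193) held S100a6 in 31.1%, against 6.36% of the others, and Lef1 in 35.8% against 44.7%. These co-detections are descriptions of cells within a library, which are not replicates, and both genes of a pair come from the same 1500 UMIs.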

How the data were processed

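The deposited matrices hold raw UMI counts per gene and barcode. Per the submitters' processing notes they were made with Cell Ranger 2.1.0 and 3.0.1 on mm10, and per the file headers the kit v3 matrix came from software version 3.0.2. The authors' further filters are not given in the sources used here. A cell needed 200 or more genes and no more than 10% mitochondrial UMIs, and barcodes with any Cd79a UMI or at least 2 Lyz2 UMIs were left out. No doublet caller was run. UMIs were summed per library over the 27514 gene IDs common to both references and scaled to CPM, and log2 ratios were taken with 0.5 CPM added. Of 1068 listed symbols 1036 matched. Shares of cells were read after thinning to 1500 UMIs (seed 11), with exact binomial and exact conditional intervals. SciPy 1.17.1 gave the intervals, pandas 2.3.3 and NumPy 2.4.6 (Python 3.11.15) the tables, Biopython 1.88 the alignments, matplotlib 3.10.9 the plots and edgeR 4.0.16 (R 4.3.3) the TMM factors. Scripts were tested on simulated data.

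Named genes were the 15 called genes per direction with the largest smaller ratio, up to 4 called genes per direction from each list, preset anchor genes of each list and the sort markers. NK receptors and immediate early genes were only counted, except the sort marker Klrb1c and Cd160, which other lists also hold. The members and lists were chosen with earlier results of these data known. Ifngr1, Ftl1, Pax5, Csf1r, Adgre1 and Ncr1 fell outside the rule and were named after their values were seen. Alternatives changed the fold, the CPM minimum, the scaling, the cell filters, the weight of cells and the naive library used. Leaving out cells with Trdc was added after seeing the data. Gene coordinates are those of GENCODE vM21 (GRCm38). Genes that overlap others or have near-identical copies carry uncertain counts. Klrb1c, Foxp3, Gata3 and Tcf7, among others, overlap a counted gene on the same strand. A few genes are not reported here.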

Additional observations from a re-analysis of the deposited data

Results flagged for a closer look

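The reference used for naive DNT replicate 2 counts T cell receptor and immunoglobulin constant genes that lie outside the gene IDs shared with the other libraries, and these included TCR delta, TCR gamma and immunoglobulin genes with signal there. The TCR delta gene Trdc had 1948 UMIs and was found in 8.06% of the cells, although the sort was TCRγδ-. The TCR gamma genes Tcrg-C1, Tcrg-C2 and Tcrg-C4 had 2597, 3797 and 2116 UMIs, in 19.5%, 27.4% and 19.7% of cells. The immunoglobulin heavy chain gene Ighm had 11518 UMIs in 70.4% of cells, although cells with a Cd79a UMI had been left out. Trac, the TCR alpha gene of the sorted cells, was found in 94.4%. Between the 526 cells with a Trdc UMI and the 5999 without, Ccr9 stood at 124 and 12.1 CPM and Igfbp4 at 32.7 and 7.98 CPM. No library with the other reference gives these genes, so no CD4 level is at hand. Their levels in the B cell barcodes of replicate 2 and in the other kit v3 library of the series were not taken. The source of the signal was not tested. Without the Trdc cells 221 genes were called higher and 59 lower.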

How the results depend on the processing

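The counts of 220 higher and 58 lower genes moved with the threshold: 423 and 127 at 1.5-fold, 120 and 30 at 3-fold, 359 and 89 with a 10 CPM minimum, and 97 and 31 with 50 CPM. Lower genes moved to 96 with TMM scaling, 108 with median-of-ratios scaling and 133 with totals without mitochondrial and ribosomal protein genes. Leaving out a naive library gave 254 to 1901 higher and 89 to 143 lower genes. The other cell filters and weights gave 220 to 227 higher and 53 to 63 lower genes. Of the 112 named genes that were called, 102 kept their call with TMM and 100 with median-of-ratios scaling. None of these 112 changed direction under the alternatives run, but for most alternatives this was fixed in advance. Other thresholds leave the ratios unchanged, and leaving out a naive library keeps every call. The other scalings shift all ratios of a library by less than the 2-fold of a call. Genes near the CD4 level did change direction, such as Tcf7 in replicate 1. The median of all genes tested in replicate 2 went from 0.49 to -0.10 with TMM and -0.20 with median-of-ratios scaling. No paired analysis was possible because CD4 has 1 library and no replicate number in its label. With 1 CD4 library the spread between CD4 samples is unknown, and naive replicate 2 differs from CD4 in kit and depth.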
